A study of Homo sapiens with 12 samples.

Results

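The 3′ ends of the 22 mitochondrial (mt-) tRNAs were compared between PDE12-/- cells and PDE12-/- cells overexpressing mtPAP. The comparison used 2 of the 12 libraries of the study, one for each condition, and all 22 of the 22 mt-tRNAs were read in both. They were chosen as the pair of libraries of the MPAT-Seq assay that differ in mtPAP within the knockout. The cells were HEK293T, a line derived from human embryonic kidney. In PDE12-/- the gene had been disrupted with zinc finger nucleases, and the line was grown from 1 cell, so that it is a clone. In PDE12-/- + mtPAP, untagged human mtPAP was in addition expressed from an inducible transgene, with doxycycline as inducer. Cells of PDE12+/+, with and without overexpressed mtPAP, gave 2 further libraries, used below for the same contrast. Whether the libraries without a transgene also received doxycycline is not given in the sources used here.

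The genotypes of the mtPAP libraries rest on the tables and not on the sample labels. The library taken here as PDE12-/- + mtPAP carries the label PDE12+/+ + mtPAP, while its table was deposited under the name PDE12-/- with mtPAP. The other mtPAP library has the opposite conflict. All 281 rows of the first table were identical to the sheet that the study's source data name PDE12-/- + mtPAP, and 0 were identical to the sheet of the other genotype. The 269 rows of the second table likewise matched the PDE12+/+ + mtPAP sheet. Transcripts of PDE12 and of the gene of mtPAP are not read by this assay, so neither library could be checked for them. Results with the library that is labelled PDE12-/- + mtPAP are given beside the main count.

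A tRNA becomes active once a tRNA nucleotidyltransferase has added CCA to its last encoded nucleotide, the discriminator base, because the amino acid is attached to the terminal A. mtPAP is the poly(A) polymerase of human mitochondria and makes the poly(A) tails of mt-mRNAs. PDE12 is a mitochondrial 3′ to 5′ exoribonuclease that removes A residues from RNA. mt-tRNA genes lie between mt-mRNA and mt-rRNA genes on both strands of the mitochondrial genome, and they are cut out of long precursor transcripts at both ends. MPAT-Seq joins a linker to the 3′ end of each mitochondrial RNA and amplifies every mt-tRNA with its own primer, and the reads show the nucleotides at that end. Positions were counted from the discriminator base (0), so that CCA occupies +1, +2 and +3, and +4 is the first nucleotide that a mature mt-tRNA does not have. The percentage extended is the number of reads at +4 divided by the number at +3. It counts reads whatever bases they hold at +1 to +3, so not every read counted carries CCA.

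The genes below are those on which the comparison turns, printed 5′ to 3′ from the mitochondrial genome of GRCh38 with the discriminator base in capitals. They are the 3 with the largest differences (MT-TQ, MT-TE and MT-TW, for glutamine, glutamate and tryptophan), the most extended (MT-TK, for lysine), the one that was lower with mtPAP (MT-TA, for alanine) and the overlapping pair MT-TY and MT-TC, for tyrosine and cysteine. Of these genes MT-TY alone ends in the letters CCA, which are encoded and lie before the positions counted as +1 to +3. MT-TW occupies 5512 to 5579 and MT-TK 8295 to 8364 on the + strand. On the - strand, MT-TQ occupies 4329 to 4400, MT-TE 14674 to 14742, MT-TA 5587 to 5655, MT-TY 5826 to 5891 and MT-TC 5761 to 5826. The last nucleotide of MT-TY and the first of MT-TC are the same base, at 5826.
MT-TE: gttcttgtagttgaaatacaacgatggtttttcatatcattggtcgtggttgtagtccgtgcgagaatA
MT-TW: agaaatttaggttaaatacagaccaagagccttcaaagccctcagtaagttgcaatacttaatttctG
MT-TQ: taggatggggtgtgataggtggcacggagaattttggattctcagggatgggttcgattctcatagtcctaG
MT-TK: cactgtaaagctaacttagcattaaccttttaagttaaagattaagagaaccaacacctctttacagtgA
MT-TA: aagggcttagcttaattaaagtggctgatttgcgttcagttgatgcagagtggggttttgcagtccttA
MT-TY: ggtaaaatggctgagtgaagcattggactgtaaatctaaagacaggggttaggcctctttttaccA
MT-TC: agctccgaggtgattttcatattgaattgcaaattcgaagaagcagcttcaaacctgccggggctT

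The ends read in the libraries are summarised by the most frequent nucleotide at each position, from the discriminator base to the last position reached by at least 5% of the reads, with +1 to +3 in capitals. These lines join positions and are not single reads. For MT-TQ in PDE12-/-, C was not taken as deposited but set to the total minus the other bases, because its counts were faulty. They are shown for 1 mt-tRNA with a plain CCA in both libraries (MT-TN, for asparagine) and for those in which the majority nucleotide at positions 0 to +3 differed between the libraries.
MT-TN in PDE12-/-: gCCAaaaaa
MT-TN in PDE12-/- + mtPAP: gCCAaaaaaaaaa
MT-TC in PDE12-/-: tCCAaaaaaaa
MT-TC in PDE12-/- + mtPAP: cCCAaaaaaaaa
MT-TQ in PDE12-/-: gCCA
MT-TQ in PDE12-/- + mtPAP: aAAAaaaaaaaaa
MT-TS1 in PDE12-/-: gCCAaaaaa
MT-TS1 in PDE12-/- + mtPAP: aAAAaaaaaaaaa
MT-TI in PDE12-/-: aCCAaaaaaaaa
MT-TI in PDE12-/- + mtPAP: aAAAaaaaaa
MT-TS2 in PDE12-/-: aCCAaaaaaaa
MT-TS2 in PDE12-/- + mtPAP: aAAAaaaaaaa
In the other mt-tRNAs, CCA was the majority reading in both libraries and A the majority at every position after it. MT-TN kept its CCA and was read further with mtPAP. For the 4 mt-tRNAs at the foot of the list, A replaced C as the majority reading at +1 and +2 in the library with mtPAP.

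With mtPAP, more reads extended beyond CCA for 21 of 22 mt-tRNAs in PDE12-/-. The median percentage over the 22 was 34.5% in PDE12-/- and 88.5% in PDE12-/- + mtPAP, with a median difference of 40.9 percentage points. There is 1 library per condition, so that no test was possible, and each value carries a 95% Wilson interval that covers counting error alone. A difference was called where the intervals of both libraries did not overlap. By this rule 20 mt-tRNAs were higher with mtPAP (90.9%) and 1 was lower (4.55%). These shares describe 2 libraries and not the conditions, and the percentages of 22 mt-tRNAs from one library are not replicates. With the library labelled PDE12-/- + mtPAP in place of the one used, the median with mtPAP was 24.2%, the median difference was -6.68 percentage points, and 5 mt-tRNAs were higher and 12 lower with intervals apart. The direction of the comparison therefore rests on which genotype the tables belong to.

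Reads at +3 per mt-tRNA ran from 37 to 75267 (median 5072.5) in PDE12-/- and from 53 to 81005 (median 6236.5) in PDE12-/- + mtPAP. In at least 1 of the libraries 6 mt-tRNAs had under 500 such reads, namely MT-TQ, MT-TI, MT-TS1, MT-TY, MT-TR and MT-TS2. Among the other 16, 14 were higher and 1 lower, with medians of 34.5% and 88.5%. Summed over all mt-tRNAs, 154972 of 399940 reads were extended in PDE12-/-, or 38.7%, and 234598 of 359907 in PDE12-/- + mtPAP, or 65.2%. MT-TV alone gave 81005 of the reads at +3 in the mtPAP library and had the second lowest percentage there.

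The largest differences were in mt-tRNAs that were little extended without mtPAP. MT-TQ went from 8.14% (interval 4.91 to 13.2) to 90.3% (80.5 to 95.5), on 172 and 62 reads at +3. MT-TE went from 18.8% (17.6 to 19.99) to 96.8% (96.3 to 97.2), a difference of 78.0 percentage points (76.7 to 79.2). MT-TW went from 15.6% (13.9 to 17.4) to 87.8% (86.5 to 89.1), a difference of 72.3 points (70.0 to 74.3). The values of MT-TE and MT-TW come from 4176 and 1675 reads without mtPAP and from 6740 and 2370 with it, so counting error is small beside the difference. MT-TS1, for serine at UCN codons, read 13.5% (5.91 to 28.0) and 73.6% (60.4 to 83.6), on 37 and 53 reads. With mtPAP, A was read at +2 in 89.2% of MT-TQ and 89.8% of MT-TS1 reads, so most of these carried no plain CCA.

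A second set of mt-tRNAs was higher by 35.7 to 55.3 points. MT-TN rose from 26.5% to 81.8%, on 31331 and 44562 reads at +3. MT-TP, for proline, rose from 42.4% to 94.6%, and MT-TT, for threonine, from 42.6% to 93.1%. These 2 genes face each other across the strands, and their intervals overlapped within each library. MT-TM, which serves both initiation and elongation with methionine, rose from 17.4% to 63.1%, and MT-TC from 13.8% to 59.2%. For MT-TF, carrying phenylalanine, the values were 45.1% and 90.2%. MT-TG, for glycine, read 11.3% and then 54.4%. MT-TD, for aspartate, went from 50.5% to 89.1%, and MT-TR, for arginine, from 8.05% (5.84 to 11.0) to 43.7% (35.6 to 52.1). With mtPAP, MT-TM, MT-TC, MT-TG and MT-TR lay between 43.7% and 63.1%, and the others of this set at 81.8% or above.

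Smaller differences were read at both ends of the scale. MT-TL1, for leucine at UUR codons, rose from 65.8% to 97.1%, and MT-TI, for isoleucine, from 60.9% (53.9 to 67.6) to 90.2% (84.8 to 93.8). At +5 in place of +4, MT-TI read 60.4% and 67.1%, and its intervals overlapped. MT-TV, for valine, whose mt-tRNA is also a structural part of the large mitoribosomal subunit, rose from 9.84% to 26.0% and stayed mostly unextended on 81005 reads. MT-TS2, for serine at AGY codons, whose mt-tRNA lacks a D-arm, read 82.7% (81.7 to 83.7) and 94.3% (90.1 to 96.8). With mtPAP, A was read at +2 in 96.1% of MT-TI and 75.9% of MT-TS2 reads, so most of these carried no plain CCA. For MT-TY the values were 73.2% (68.8 to 77.2) and 83.5% (78.5 to 87.5). Its difference of 10.3 points depended on the counting. At +5 it was 6.87 points with intervals that overlapped, with only A counted at +4 it was 21.7 points, and with the positions as printed 18.3 points. MT-TK was the most extended in each library, at 91.1% (90.8 to 91.3) and 98.4% (98.1 to 98.7). MT-TH, for histidine, rose by 1.85 points from 89.9% to 91.8% (difference 1.45 to 2.26). Both began near 90%, so that no rise over about 10 points was possible.

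MT-TL2 and MT-TA were not higher with mtPAP beyond counting error. MT-TL2, for leucine at CUN codons, read 10.4% (9.40 to 11.5) and 12.1% (10.3 to 14.2), a difference of 1.69 points with an interval from -0.44 to 4.04. It was the only mt-tRNA under 25% in the mtPAP library. MT-TA read 71.8% (70.9 to 72.7) and 68.8% (68.2 to 69.3), so that it fell by 3.07 points (interval -4.14 to -1.99). When reads at +5 were counted in place of +4, MT-TA was higher with mtPAP, at 52.7% against 40.1%. Many of its tails in PDE12-/- were a single nucleotide long, and tails of at least 2 nt made up 55.8% of its extended reads in PDE12-/- and 76.7% in PDE12-/- + mtPAP.

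Seen from the mature end, fewer reads ended at +3 with mtPAP for most mt-tRNAs. The study cautions that MPAT may over-represent extension of unmodified molecules, since reverse transcriptase must pass modified bases. Shares of reads may therefore differ from shares of molecules. The share of reads at the discriminator base that ended exactly at +3 had a median of 56.9% in PDE12-/- and 9.73% in PDE12-/- + mtPAP. It was under 10% for 1 mt-tRNA without mtPAP, MT-TK, and for 11 with it. These 11 include MT-TQ, MT-TI and MT-TS2, whose majority reading at +1 to +3 with mtPAP was AAA and not CCA. MT-TE changed most on this scale, from 79.0% to 3.12% (25.3-fold lower). MT-TL1 went from 32.3% to 2.87% (11.2-fold lower), MT-TP from 56.6% to 5.40% (10.5-fold lower) and MT-TW from 81.0% to 9.25% (8.76-fold lower). For MT-TK the share went from 8.86% to 1.56% (5.68-fold lower), a larger ratio than its difference of 7.35 points shows. Only MT-TL2 and MT-TV kept at least 50% of reads at a mature end with mtPAP, 77.0% and 61.0%. MT-TA had 28.1% and 28.3%.

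**Figure D1:**
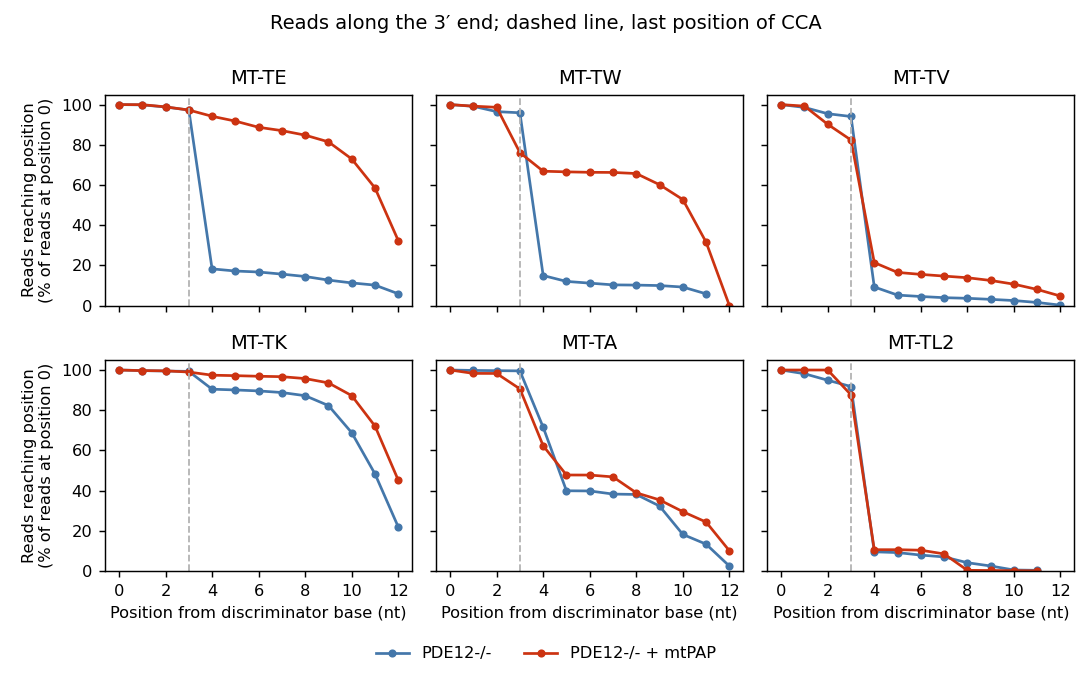
Reads reaching each position of the 3′ end as a percentage of the reads at the discriminator base (position 0) for 6 mt-tRNAs in PDE12-/- (blue) and PDE12-/- + mtPAP (red); the dashed line marks +3, the A of CCA. In MT-TE the blue line drops after the dashed line while the red line falls slowly; in MT-TL2 the lines overlie each other, and in MT-TA they cross.

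Groups of mt-tRNAs defined by their genes were compared by counts and medians. All 8 genes of the - strand but MT-TA were higher, with medians of 22.7% and 82.6%, and 13 of the 14 genes of the + strand, with medians of 43.8% and 89.6%. The 16 with A as discriminator base had a median difference of 33.5 points, and the 6 with C, G or T one of 57.7 points. Against all 22, whose median difference was 40.9 points, these groups lay on both sides, and the 6 include MT-TQ and MT-TS1 with few reads. Of the 8 followed on the same strand by an mt-mRNA gene within 5 nt, 7 were higher, with a median difference of 37.2 points. The 2 followed by an mt-rRNA gene, MT-TF and MT-TV, differed by 45.1 and 16.1 points. The 4 followed by an mt-tRNA gene, MT-TN, MT-TH, MT-TY and MT-TS2, had a median difference of 10.9 points, and the 8 followed by none 51.3 points.

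Grouping by the percentage in PDE12-/- uses one of the 2 values compared, so it is given as a description. The 10 mt-tRNAs under 25% without mtPAP had a median of 12.4%, and one of 61.1% with it, spread from 12.1% to 96.8%. The 9 between 25% and 75% had medians of 50.5% and 90.2%, and with mtPAP they lay between 68.8% and 97.1%. MT-TK, MT-TH and MT-TS2, over 75% without mtPAP, had medians of 89.9% and 94.3%. A low percentage without mtPAP thus went with values over nearly the whole scale with it, with MT-TE and MT-TL2 at the ends.

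The tails added after CCA were made almost entirely of A, and more so with mtPAP. Over all positions from +4 on, the median share of A was 97.4% in PDE12-/- and 99.4% in PDE12-/- + mtPAP, higher for 17 of 22 mt-tRNAs. Much of the remainder in PDE12-/- was C at +4, the first position after CCA. C made up at least 5% of the reads at +4 for 12 mt-tRNAs in PDE12-/- and for 2, MT-TH and MT-TV, in PDE12-/- + mtPAP. With intervals apart, the share of C at +4 was lower with mtPAP for 13 of 22 mt-tRNAs (59.1%) and higher for 1 (4.55%). In MT-TW it went from 26.8% to 3.55%, in MT-TD from 21.2% to 2.13%, in MT-TY from 16.7% to 0.922%, and in MT-TK from 7.48% to 0.519%. MT-TN was the exception, with 0.0842% and 3.63%. MT-TC read 8.52% and 1.09%, MT-TM 11.0% and 1.49%, and MT-TV 13.8% and 6.28%.

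A share of the reads at +4 falls when tails that begin with A become more frequent, so C at +4 was also taken per read at +3. By point values, without regard to intervals, it was lower with mtPAP for 13 of 22 mt-tRNAs on this scale and for 15 of 22 as a share of reads at +4. MT-TK went from 6.82% to 0.511% of reads at +3, MT-TY from 12.2% to 0.769% and MT-TD from 10.7% to 1.90%. For MT-TW the values, 4.18% and 3.12%, were closer than the shares at +4. MT-TV read 1.36% and 1.63%, in the opposite order to its share at +4.

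MT-TH differed from the others in its C residues. C made up 32.7% of its reads at +3, 45.1% at +4 and 46.0% at +5 in PDE12-/-. In PDE12-/- + mtPAP these were 9.30%, 41.3% and 12.6%. From +7 on, at least 98.0% of its reads had A in both libraries. The counts do not tie the bases of one read together, so it cannot be told from them which C residues were on the same molecule.

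In 5 mt-tRNAs a large part of the reads with mtPAP did not carry CCA at +1 to +3. Among them, MT-TC had few reads with A at +1, and its pattern is described separately below. A was read at +2 in at least 25% of reads for MT-TI alone in PDE12-/-, and for MT-TQ, MT-TI, MT-TS1, MT-TS2 and MT-TC in PDE12-/- + mtPAP. Over all 22 the share of A at +2 was higher with mtPAP for 8 (36.4%) and lower for 5 (22.7%), with medians of 1.81% and 1.34%. In MT-TQ, A at +1 and +2 went from 3.76% and 4.36% to 89.4% and 89.2%. Its discriminator base, G in the genome, was read as A in 2.53% of reads without mtPAP and 86.8% with it. MT-TS1, also with G as discriminator base, read A there in 14.6% and 83.9% of reads. In MT-TI the shares of A at +1 and +2 were 32.4% and 34.1%, and then 95.7% and 96.1%. MT-TS2 read A in 8.07% and 15.3% of reads, and then in 76.1% and 75.9%.

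MT-TQ, MT-TI, MT-TS1 and MT-TS2 had 68, 185, 62 and 256 reads at the discriminator base in the mtPAP library, against 513, 315, 41 and 5754 in PDE12-/-. C was still read at +2 in part of their reads, and the counts do not show which reads with +4 carried a complete CCA. If all reads with A at +2 were extended, and are taken out, MT-TS2 was lower with mtPAP by 58.1 points with intervals apart. This value rests on few reads with mtPAP, since 180 were taken out of the 194 at +3. MT-TS2 had 237 reads at +2 there, and the counts do not show whether all 180 reached +3. With mtPAP, A at +2 was read in 172 reads of MT-TI and 58 of MT-TQ, more than the 156 and 56 extended. Not all such reads can therefore have been extended, and the extended reads left were set to 0. This also held for MT-TQ in PDE12-/- (17 against 14). The values obtained for MT-TI (-37.5 points) and MT-TQ (0) are thus not measured differences. MT-TL2 was higher by 7.01 points with intervals apart. MT-TS1 had no reads left. If none of those reads were extended, MT-TQ, MT-TI and MT-TS2 with mtPAP had fewer reads left than extended, which is not possible. They had 62, 173 and 194 reads at +3, 58, 172 and 180 with A at +2, and 56, 156 and 183 extended. All reads left were counted as extended, so their differences (91.0, 2.50 and 2.20 points) were set by this rule and not measured. The difference of MT-TY (7.19 points) had intervals that overlapped. With such values included, the count of mt-tRNAs higher with mtPAP was 17 of 21 in the first case and 16 of 21 in the second. In the second case the reads left of MT-TC and MT-TK with mtPAP were likewise all counted as extended. Among the 17 mt-tRNAs with A at +2 under 25% in both libraries, a subset taken after the values were seen, 15 were higher and 1 lower, with medians of 42.4% and 87.8%.

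MT-TC was read in a pattern of its own, on 76545 and 63453 reads at the discriminator base. T, the genomic discriminator base, was the majority without mtPAP, and C made up 12.6% of reads at that position. With mtPAP, C made up 49.8%. A at +2 went from 10.8% to 48.8%, and A at +1 from 0.24% (0.207 to 0.277) to 1.47% (1.38 to 1.57). C at position 0, C at +1 and A at +2 spell CCA one position early, and the shares of the first and the last were close to each other within each library. The percentage extended of MT-TC counts reads at +3, so for such reads it takes an A after CCA as part of CCA. With reads with A at +2 taken out in the 2 ways just named, its difference was 13.6 and 84.5 points, with 45.4 points as measured. In the second way 60499 reads at +3 less 30825 with A at +2 left fewer than the 35809 extended. All reads left were then counted as extended. Both ways treat the libraries alike, so these values do not bound the difference.

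MT-TY had the opposite order at its discriminator base, the base it shares with MT-TC. A, the genomic base, made up 64.6% of reads there in PDE12-/- and 93.5% in PDE12-/- + mtPAP, and C made up 34.6% and 4.90%. Between the discriminator base and +1, 17.3% of its reads ended without mtPAP and 5.88% with it. MT-TY had 433 and 260 reads at +3. Its table in the mtPAP library was numbered from one base earlier than the others and was shifted to match. At that earlier base it had 355 reads, against 306 at the discriminator base, so part of its reads ended before the discriminator base. Its counts in PDE12-/- start at the discriminator base, so ends before that base could not be compared.

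Reads that ended before +3, the position of the A of CCA, were more frequent with mtPAP. The share of reads at the discriminator base that did not reach +3 had a median of 3.86% in PDE12-/- and 9.11% in PDE12-/- + mtPAP. With intervals apart it was higher with mtPAP for 14 of 22 mt-tRNAs (63.6%) and lower for 3 (13.6%). The step from +2 to +3 held most of the change, with medians of 1.41% and 6.70%, while the steps from 0 to +1 and from +1 to +2 had medians of 0.902% and 1.22% without mtPAP and 0.469% and 0.838% with it.

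MT-TW showed this most clearly among the well read mt-tRNAs. Its lost share went from 4.07% to 23.9%, of which 0.573% and 22.5% fell between +2 and +3. MT-TV went from 5.92% to 17.6%, MT-TG from 3.65% to 15.9%, MT-TM from 3.56% to 12.1% and MT-TA from 0.433% to 9.39%. MT-TH went from 0.454% to 5.98%. In MT-TS2 the share was 3.04% and 24.2%, and in MT-TR 9.00% and 30.4%, on 256 and 194 reads at the discriminator base with mtPAP. MT-TQ and MT-TI had the reverse order, 66.5% and 39.0% without mtPAP and 8.82% and 6.49% with it, and MT-TL1 went from 5.69% to 2.56%. MT-TE lost 2.70% in both libraries. With mtPAP, most reads of MT-TS2, MT-TQ and MT-TI had A at +1 and +2. The counts do not show which of their ends before +3 lay within a CCA.

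Dividing by reads at position 0 instead, which counts these lost ends as not extended, gave a median extended share of 30.8% in PDE12-/- and 73.3% in PDE12-/- + mtPAP. On this scale 18 mt-tRNAs were higher and 3 lower. MT-TH then fell from 89.5% to 86.3% and MT-TS2 from 80.2% to 71.5%, so the small rises of both depend on the denominator. MT-TA fell from 71.5% to 62.3%.

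Tails were also longer for some mt-tRNAs. The median length of the added tail, over reads with at least 1 added nucleotide, had a median over the 22 of 6 nt without mtPAP and of 7 nt with it. It was longer for 7 mt-tRNAs, shorter for 3 and equal for 12. Length was counted from the first position after CCA, whatever bases were read before it. With mtPAP, most reads of MT-TQ, MT-TI, MT-TS1 and MT-TS2 carried no plain CCA. Their counted lengths leave out A residues before that position, and these counts include them. Lengths cannot exceed what the tables hold, since the last position with at least 1% of the extended reads lay between +10 and +13 in both libraries. The share of tails of at least 6 nt is less affected by this limit. With intervals apart it was higher with mtPAP for 13 of 22 mt-tRNAs (59.1%) and lower for 6 (27.3%).

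MT-TQ, MT-TV, MT-TD, MT-TN and MT-TR had medians longer by at least 2 nt with mtPAP. The median tail of MT-TV went from 2 to 6 nt, with 33.5% and 58.4% of tails at 6 nt or more. MT-TD went from 3 to 7 nt (33.1% and 66.0%) and MT-TN from 3 to 5 nt (15.8% and 44.1%). In MT-TQ the medians were 2 and 8 nt, on 14 and 56 extended reads. Most MT-TQ reads with mtPAP carried no plain CCA, so the 8 nt leave out A residues before the counted positions. MT-TR went from 6 to 8 nt, with 54.3% (38.2 to 69.5) and 96.6% (88.5 to 99.1) of tails at 6 nt or more, on 35 and 59 extended reads. The median of MT-TM was 7 and 8 nt and that of MT-TA 5 and 6 nt. MT-TE, MT-TK, MT-TW, MT-TC, MT-TH, MT-TY and MT-TS2 kept medians of 8, 8, 7, 7, 7, 6 and 6 nt. Among these, tails of at least 6 nt went from 69.4% to 86.5% in MT-TE, from 66.7% to 89.96% in MT-TW and from 91.0% to 96.1% in MT-TK, and from 93.0% to 88.5% in MT-TH. For MT-TS2 with mtPAP, the counted length leaves out A residues read in place of CCA, so its equal medians do not compare whole added tails.

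Tails of MT-TL1 and MT-TT were shorter with mtPAP, and so was the counted length of MT-TI. MT-TL1 went from 6 to 5 nt, MT-TT from 8 to 7 nt and MT-TI from 6 to 2 nt. In MT-TI, A was read at +1 and +2 in 32.4% and 34.1% of reads in PDE12-/-. With mtPAP these shares were 95.7% and 96.1%. Such A residues lie before the counted positions, so whether the whole added run of MT-TI was shorter was not tested. In MT-TL2 the median was 4 nt in both, with 26.1% of tails at 6 nt or more without mtPAP and 2.38% with it, on 345 and 126 extended reads. The 2.38% was 3 reads, at the floor of 3 reads. A higher percentage extended and longer tails therefore did not always go together. MT-TL1 had more reads extended by 31.3 points and a lower share of long tails, 47.6% against 58.4%.

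The same contrast in PDE12+/+ gave smaller differences for most mt-tRNAs. The median percentage was 12.8% in PDE12+/+ and 24.2% in PDE12+/+ + mtPAP, and 15 mt-tRNAs were higher (68.2%) and 4 lower (18.2%) with intervals apart. The rise with mtPAP was larger in PDE12-/- for 16 of 22 mt-tRNAs. The difference between both contrasts could not be tested with 1 library in each condition, and its intervals cover counting error only. By these, 15 had a larger rise in PDE12-/- and 6 a smaller one. All 22 had a higher percentage in PDE12-/- + mtPAP than in PDE12+/+ + mtPAP, 21 of them with intervals apart.

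MT-TW, MT-TN, MT-TM, MT-TC and MT-TG were among those that rose by over 40 points in PDE12-/- and by under 10 points, or fell, in PDE12+/+. In PDE12+/+ MT-TW went from 8.51% to 17.7%, MT-TC from 2.25% to 4.29% and MT-TG from 2.87% to 5.87%. MT-TN fell there from 37.9% to 16.0% and MT-TM from 5.96% to 3.23%. MT-TN had A at +2 in 33.1% and 10.7% of its reads in these libraries, so part of them lacked a plain CCA. MT-TV, at 1.47% and 1.80%, was almost without extensions in PDE12+/+. MT-TL2 went from 10.3% to 0.588% in PDE12+/+, whereas in PDE12-/- its intervals overlapped. The 0.588% was 3 of 510 reads, at the floor of 3 reads.

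MT-TE, MT-TP, MT-TT and MT-TL1 rose in both genotypes. In PDE12+/+ MT-TE went from 11.4% to 68.9%, MT-TP from 23.1% to 87.2%, MT-TT from 18.9% to 68.04% and MT-TL1 from 33.1% to 84.2%. The rise of MT-TT was 49.2 points in PDE12+/+ and 50.5 points in PDE12-/-, and the interval of the difference between them ran from -1.96 to 4.61. MT-TK went from 8.02% to 38.9% and MT-TH from 3.11% to 9.05% in PDE12+/+, each a larger rise than in PDE12-/-, where they began at about 90%. MT-TA went from 21.995% to 41.0% there, and MT-TY from 33.8% to 75.9%, with 54 reads at +3 in the second library.

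**Figure D2:**
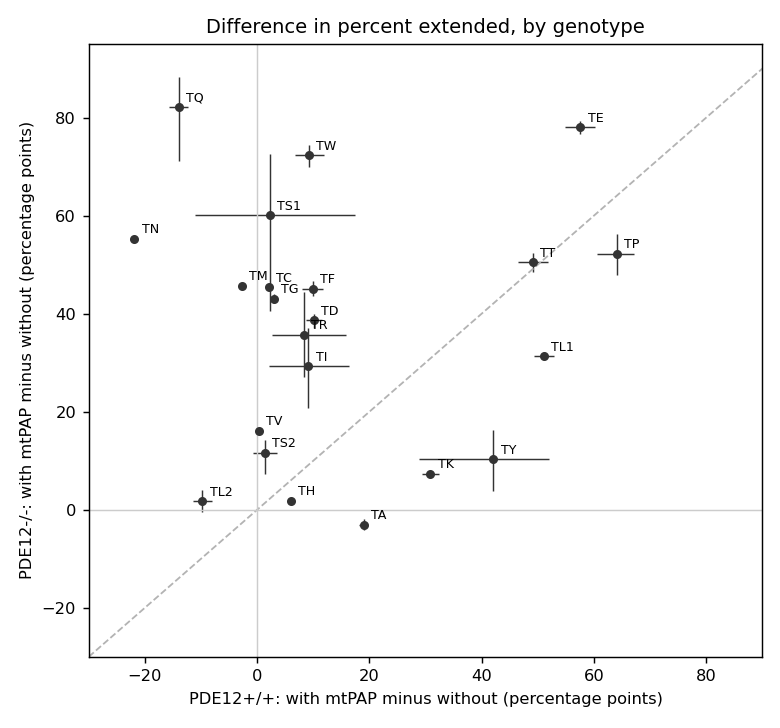
Difference in percentage extended with mtPAP minus without for each mt-tRNA (named without its MT- prefix) in PDE12+/+ (horizontal axis) and PDE12-/- (vertical axis), in percentage points with 95% Newcombe intervals; the dashed line marks equal differences. Of the 22 points 16 lie above the line, and MT-TE, MT-TP, MT-TT and MT-TL1 are far from 0 on both axes.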

How the data were processed

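MPAT-Seq libraries of mitochondrial RNA were analysed, 1 library per condition. The authors removed primers with cutadapt, aligned those over 20 nt by Bowtie2 against GRCh38-derived sequences in which 30 uncalled positions follow each mt-tRNA, and deposited, for each position, the whole-number count of reads and of each base, an unnormalized count kept here under the unit class other. Versions are not given in the sources used here. Uncalled positions limit the tail length that can map, but the last position with at least 1% of the extended reads was at most +13. What set this shorter reach is not given in the sources used here. Reads carry no molecular identifiers, so that intervals and floors cover counting error only.

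The percentage extended, the share lost before +3, base shares and tail lengths were computed in Python 3.11.15. Wilson intervals at 95% came from SciPy 1.17.1 and Newcombe intervals from the Wilson bounds. A floor of 3 reads was 0.00399% to 8.11% of those at +3 without mtPAP, and 0.00370% to 5.66% with it. The measures were tested on simulated data. Gene positions are from GENCODE release 44.

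Errors in the tables were repaired: the table of MT-TY in both mtPAP libraries was shifted by 1 position, 1 table of PDE12+/+ named MT-TT was read as MT-TD, and the C counts of MT-TQ in PDE12-/-, repeated at 12 positions, were set to the total minus the other bases. The genotype of the mtPAP libraries follows the names under which the tables were deposited and the source data, against the labels.

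Members and gene groups were chosen with earlier results of these data known. All 22 mt-tRNAs are named with their percentage extended. Base shares and tail lengths are given for the 3 largest and 3 smallest differences, MT-TK, MT-TH, MT-TS2, MT-TE, MT-TM, MT-TV, MT-TN, and the overlapping pairs MT-TY with MT-TC and MT-TI with MT-TQ. Others are named where their values stood out, after they were seen. Alternatives were another denominator, only A at +4, +5 in place of +4, at least 500 reads, the label's genotype, reads with A at +2 taken out, and MT-TY as printed. The subset of mt-tRNAs with A at +2 under 25% was added after seeing the data. RNA-seq and the libraries with PDE12 re-expressed were not used here.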

Additional observations from a re-analysis of the deposited data

Results flagged for a closer look

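Counting reads at +4, in 4 mt-tRNAs the contrast with mtPAP went opposite ways in the genotypes, with intervals apart in each. The difference between the contrasts was not tested, since each condition has 1 library. It is given in percentage points, as the change in PDE12-/- minus that in PDE12+/+. For MT-TN it was 77.2, with 26.5% and 81.8% in PDE12-/- and 37.9% and 16.0% in PDE12+/+. In PDE12+/+, A was read at +2 in 33.1% of MT-TN reads without mtPAP and in 10.7% with it. The share of reads without a plain CCA thus differed there, and its part in the fall was not tested. For MT-TQ it was 96.1, with 8.14% and 90.3% against 14.2% and 0.253%, on 172 and 62 reads at +3 in PDE12-/-. The 0.253% was 2 of 791 reads, below the floor of 3 reads. Behind the 90.3%, A was read at +2 in 89.2% of reads, so most carried no plain CCA. For MT-TM it was 48.4, with 17.4% and 63.1% against 5.96% and 3.23%. For MT-TA it was -22.04, with 71.8% and 68.8% against 21.995% and 41.0%. MT-TA went opposite ways at +4 and not at +5, where it read 40.1% and 52.7% in PDE12-/- and 8.83% and 22.8% in PDE12+/+.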

How the results depend on the processing

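The choice of genotype for the mtPAP libraries changed most. With the library labelled PDE12-/- + mtPAP, the median with mtPAP was 24.2%, the median difference -6.68 points, 5 mt-tRNAs were higher and 12 lower, and the median tail was 6 nt against 7 nt. The differences that turned were -10.6 points for MT-TN, -7.89 for MT-TQ, -1.62 for MT-TF, -52.2 for MT-TK, -80.9 for MT-TH, -8.03 for MT-TV, -14.2 for MT-TM, -35.4 for MT-TD, -5.48 for MT-TG, -9.54 for MT-TC and -25.3 for MT-TS2. With reads at the discriminator base as denominator the medians were 73.3% with mtPAP and 30.8% without, the median difference 36.2 points, 3 were lower, and MT-TH (-3.23) and MT-TS2 (-8.72) turned. Counting only A at +4 gave 31.4% without mtPAP and a median difference of 44.8 points. Reads at +5 gave 82.6% and 29.3%, 19 mt-tRNAs higher and 0 lower by intervals, and 12.6 points for MT-TA, which turned. MT-TI (6.64) and MT-TY (6.87) then had intervals that overlapped. Taking out reads with A at +2 gave 80.0% and 37.5%, a median difference of 31.9 points, 2 lower, and MT-TI (-37.5) and MT-TS2 (-58.1) turned, if they were extended, and 91.7% and 43.2% if they were not, when MT-TI (2.50), MT-TY (7.19) and MT-TS2 (2.20) had intervals that overlapped. MT-TS1 gave no value there. If those reads were extended, few reads of MT-TS2 with mtPAP were left. In both of these settings the values of MT-TI and MT-TQ were set by the counting rule and not measured. If those reads were not extended, the same held for MT-TS2, MT-TC and MT-TK with mtPAP. The 17 mt-tRNAs with A at +2 under 25% had a median of 42.4% without mtPAP and a median difference of 38.7 points. With at least 500 reads, the median lost share was 7.14% against 9.11%. With MT-TY as printed its difference was 18.3 points, and with only A at +4 it was 21.7 points, against 10.3 points, with no count or direction changed by the former. No paired analysis was possible because each condition has 1 library. Depth limits MT-TQ, MT-TS1, MT-TI, MT-TR, MT-TY and MT-TS2, each with under 500 reads at +3 in a library. The causes of these changes were not tested.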
